A study of Caenorhabditis elegans with 45 samples.

Results

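The genes examined here encode enzymes that make, use or remove hydrogen sulfide (H2S) and cysteine in the nematode Caenorhabditis elegans. They are cysl-2, sqrd-1, ethe-1, mpst-3, cdo-1, suox-1, cth-2 and cbs-1, chosen by name with earlier results of these data known. These 8 genes are 8 of 46926 in the deposited table, and all 8 were among the 16053 genes with enough reads to test. Whole young adult hermaphrodites of 9 genotypes gave the RNA, which was selected for poly(A) and sequenced, with replicates A to E, labelled as biological, for each genotype. The study crossed the state of the hypoxia-inducible factor HIF-1 with loss of nonsense-mediated decay (NMD), the pathway that degrades mRNAs with premature stop codons. Animals were picked as L4 larvae, 300 to 500 per sample, and collected 6 h later after growth on OP50 bacteria at 20 °C in 20% oxygen.

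The genotypes smg-2 egl-9 hif-1 (strain MT27180), smg-2 egl-9 (MT26461) and smg-2 (MT27410) carry allele r863 of smg-2, the gene of an NMD helicase. A parallel trio, smg-1 egl-9 hif-1 (MT27177), smg-1 egl-9 (MT26971) and smg-1 (MT26974), carries allele n6597 of smg-1, the gene of an NMD kinase. The trio with intact NMD was egl-9 hif-1 (CB6088), egl-9 (JT307) and the wild type N2. The allele of egl-9 was sa307 and that of hif-1 was ia4 throughout. HIF-1 is constitutively active in the 3 egl-9 genotypes that keep hif-1. No genotype lacked hif-1 alone, so the effect of hif-1 was measured only in animals that also lacked egl-9. The labels name a single strain for each genotype, so an allele and other variation carried by its strain cannot be told apart.

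As background, H2S is formed from cysteine and homocysteine, and at high levels it blocks mitochondrial respiration. Sulfide:quinone oxidoreductase, encoded by sqrd-1, takes electrons from H2S in mitochondria and leaves a persulfide. The persulfide dioxygenase ETHE-1 turns persulfide into sulfite, and sulfite oxidase, encoded by suox-1, turns sulfite into sulfate. Cystathionine beta-synthase (cbs-1) and cystathionine gamma-lyase (cth-2) build cysteine from homocysteine, and cysteine dioxygenase (cdo-1) begins its breakdown. Mercaptopyruvate sulfurtransferases such as MPST-3 move sulfur from a cysteine product, and CYSL-2 is a cysteine synthase-like enzyme with cyanoalanine synthase activity. In worms, H2S makes the related protein CYSL-1 bind and block EGL-9, the oxygen-dependent hydroxylase that marks HIF-1 for degradation, and HIF-1 targets then protect against sulfide.

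Total counts per library lay between 9822412 and 33169699, with a median of 16917459, and no count of any of the 8 genes was under 4. The hif-1 transcript had 15.8 to 36.0 CPM (read counts scaled to the library total) in the egl-9 hif-1 libraries, against means of 153 to 192 CPM in the 6 genotypes with an intact hif-1 gene. In smg-2 egl-9 hif-1 it had 306 to 392 CPM, and 248 to 361 CPM was found for smg-1 egl-9 hif-1. Its level was thus not lowered there, but lay above that of every library of the other genotypes (at most 220 CPM, in smg-1). It does not tell these 2 genotypes from each other. The smg-1 transcript had 249 to 453 CPM in smg-1 and 86.1 to 133 CPM in N2. It was also above the N2 range in smg-2 egl-9 hif-1 (161 to 270 CPM), smg-2 egl-9 (269 to 352 CPM) and smg-2 (226 to 316 CPM). Its level therefore does not tell smg-1 from smg-2 genotypes. The smg-2 transcript had 42.6 to 70.6 CPM in smg-2 egl-9 hif-1, 72.2 to 108 CPM in smg-2 egl-9 and 74.5 to 96.6 CPM in smg-2, against 74.0 to 101 CPM in N2. The smg-2 transcript was thus below the N2 range in smg-2 egl-9 hif-1, and overlapped it in smg-2 egl-9 and smg-2, so its level does not check the labels of that pair. Of the tissue markers, sperm genes differed between egl-9 and N2, with summed levels of 307 to 650 CPM in egl-9 and 663 to 1133 CPM in N2. Oocyte genes differed with NMD, with 2070 to 4145 CPM in smg-1, 2397 to 4789 CPM in smg-2 and 6157 to 7671 CPM in N2. Without NMD they also differed with egl-9, with 4970 to 6301 CPM in smg-1 egl-9 and 5695 to 6770 CPM in smg-2 egl-9. Yolk genes, which the intestine expresses, had 35690 to 45929 CPM in egl-9 and 54065 to 65205 CPM in N2. Other intestinal markers overlapped between those groups (2730 to 3509 CPM in egl-9, 2644 to 3317 in smg-1, 2514 to 3236 in smg-2 and 2869 to 3352 in N2). The part of these markers in the results below was not tested, and in whole animals fewer cells of a type and less RNA per cell cannot be told apart.

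The smg-1 egl-9 hif-1 library of replicate C stood apart in several of the genes. It had 77.7 CPM of cysl-2, against 8.47 to 11.9 CPM in the other 4 libraries of its genotype. Its sqrd-1 level was 16.3 CPM, against 0.493 to 0.996 CPM in the others. It also had the highest level of its genotype for mpst-3 (33.6 against 21.6 to 24.3 CPM), cdo-1 (30.5 against 15.5 to 19.6 CPM) and ethe-1 (7.20 against 3.31 to 5.31 CPM). The HIF-1 targets rhy-1 and rips-1 were likewise highest there, at 51.1 CPM against 17.9 to 21.7 for rhy-1, and at 38.2 CPM against 13.9 to 17.7 for rips-1. Since all libraries share an estimate of the spread, this library widened the errors of cysl-2 and sqrd-1 in every comparison. Results that rest on it are given with and without it.

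The genes lie at separate places in the genome, given here on the WBcel235 build. On chromosome II are cysl-2 (WBGene00010759, 14492874 to 14494451, minus strand) and cth-2 (WBGene00022856, 7056184 to 7057960, minus). Chromosome IV holds sqrd-1 (WBGene00008538, 14219871 to 14224440, plus) and ethe-1 (WBGene00007886, 9506936 to 9508761, minus), and chromosome V holds mpst-3 (WBGene00010383, 14895647 to 14899019, plus). On the X are cdo-1 (WBGene00018986, 862267 to 863578, minus), suox-1 (WBGene00010397, 15497555 to 15500281, plus) and cbs-1 (WBGene00013866, 10054275 to 10057528, plus). All are protein coding, with between 3 and 10 exon blocks. The exons of cdo-1 share 127 bp with the opposite-strand gene F56F10.2, those of cysl-2 share 36 bp with vnut-1, and those of suox-1 share 26 bp with tbh-1. Whether strand was used in counting is not given in the sources used here, so a few reads at those ends cannot be assigned with certainty.

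With HIF-1 active the balance of the 8 transcripts was different. Their summed level was 2744 ± 489 TPM (a level corrected for gene length, mean ± SD, n = 5) in egl-9, against 280 ± 29.3 TPM in N2. In N2 the transsulfuration enzyme gene cth-2 alone made 65.0% of the sum and ranked above the other 7, at 182 ± 22.7 TPM. In egl-9 cysl-2 made 51.2% of the sum, at 1406 ± 371 TPM, and its rank among all genes by mean TPM was 128, against 5021 in N2. The lowest of the 8 was suox-1 in egl-9, at 10.3 ± 1.31 TPM, and sqrd-1 in N2, at 2.12 ± 0.462 TPM. The sum returned to 296 ± 13.6 TPM in egl-9 hif-1. Among NMD mutants it was 1977 ± 284 TPM in smg-2 egl-9 and 310 ± 31.4 TPM in smg-2, and 2029 ± 294 TPM in smg-1 egl-9 and 304 TPM (282 to 341) in smg-1.

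Loss of egl-9 with NMD intact raised 6 of the 8 genes and lowered 1. Of all genes tested, 33.7% were called (adjusted p under 0.05 in edgeR's quasi-likelihood test) in egl-9 against N2, 11.9% as higher and 21.8% as lower. The median log2 fold change of the 8 was 2.97, against -0.03 for all genes tested. Since the 8 were chosen with earlier results of these data known, setting them beside all genes is a description and no test. The gene of the sulfide-oxidising enzyme, sqrd-1, had 597, 632, 518, 661 and 541 CPM in egl-9, against 2.89, 2.79, 3.03, 2.38 and 2.87 CPM in N2. The groups lay far apart, and the log2 fold change of 7.72 (SE 0.60, adjusted p 9.01e-14) was the largest of the 8. For ethe-1, the next enzyme of the pathway, the levels were 43.5, 38.7, 45.7, 47.4 and 48.3 CPM in egl-9, against 5.62, 6.82, 5.14, 7.38 and 5.33 CPM in N2. Its log2 fold change was 2.88 (SE 0.14, adjusted p 1.46e-20), a fold of 7.38, and no egl-9 library came near the N2 range.

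The cysteine synthase-like gene cysl-2 had 1759.7, 1342, 1130.4, 2183 and 1207 CPM in egl-9, against 37.0, 27.6, 22.9, 32.0 and 29.7 CPM in N2. Its log2 fold change was 5.67 (SE 0.42, adjusted p 1.35e-14), a fold of 51.0. Without the deviating smg-1 egl-9 hif-1 library the errors were smaller, 0.22 for cysl-2 (5.65) and 0.28 for sqrd-1 (7.70). The sulfurtransferase gene mpst-3 had 537, 438, 419, 605 and 444 CPM in egl-9, against 23.7, 23.01, 22.999, 23.3 and 22.3 CPM in N2. That was a log2 change of 4.40 (SE 0.12, with adjusted p 1.34e-28), and its N2 libraries lay within 22.3 to 23.7 CPM.

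On the cysteine side, cdo-1 had 149, 131, 129, 154 and 112 CPM in egl-9, against 17.6, 15.4, 14.5, 16.4 and 16.7 CPM in N2, a log2 change of 3.06 (SE 0.15, with adjusted p 2.17e-20). The cbs-1 gene, whose enzyme catalyses the entry into transsulfuration, had 52.9, 37.4, 40.4, 58.9 and 42.3 CPM in egl-9, against 21.7, 16.6, 17.9, 12.3 and 18.5 CPM in N2. Its log2 fold change was 1.41 (SE 0.14, adjusted p 3.09e-11). The enzyme that completes transsulfuration is encoded by cth-2, which was not called. Its levels were 229.9, 197, 179.9, 275 and 215 CPM in egl-9 and 272, 241, 263, 238 and 286 CPM in N2, and the groups overlapped. The log2 fold change of cth-2 was -0.25 (95% interval -0.51 to 0.02, adjusted p 0.148). Sulfite oxidase was the member that fell. The suox-1 levels were 21.4, 17.5, 16.9, 22.6 and 18.4 CPM in egl-9, against 24.1, 26.5, 25.2, 28.5 and 24.6 CPM in N2, a log2 change of -0.41 (SE 0.09, with adjusted p 3.16e-04), and the groups did not overlap.

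**Figure D1:**
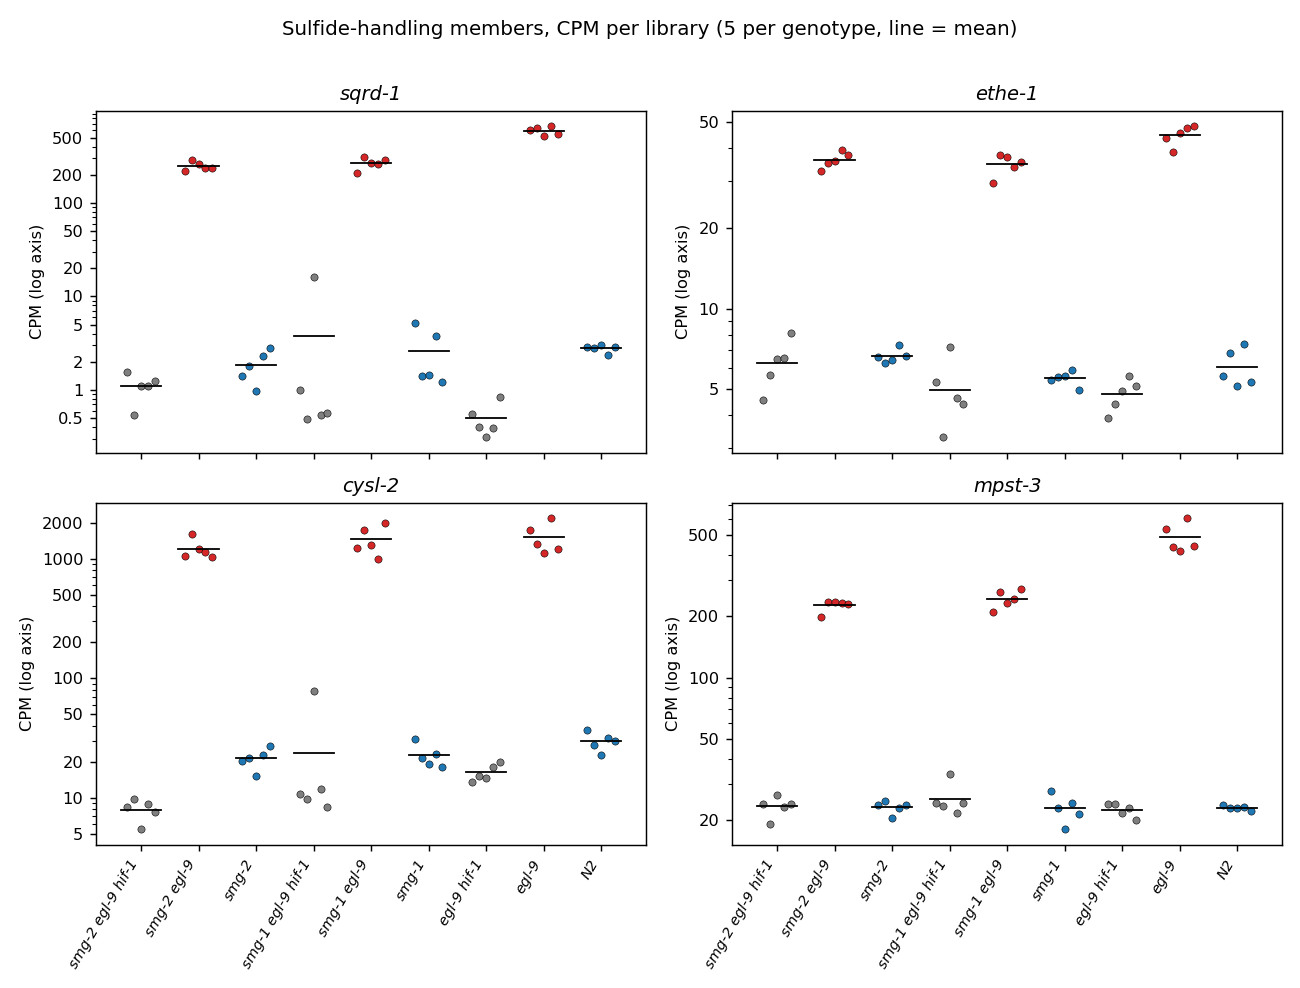
Level in CPM (log axis) of sqrd-1, ethe-1, cysl-2 and mpst-3 in each of the 45 libraries, with 9 genotypes along the horizontal axis; points are libraries (replicates A to E from left to right), lines are means, red marks the genotypes with active HIF-1, grey those that lack egl-9 and hif-1, and blue those with wild-type egl-9. The red groups stand above all others, mpst-3 and sqrd-1 lie lower in smg-2 egl-9 and smg-1 egl-9 than in egl-9, and replicate C of smg-1 egl-9 hif-1 stands above its group for cysl-2 (77.7 CPM) and sqrd-1 (16.3 CPM).

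**Figure D2:**
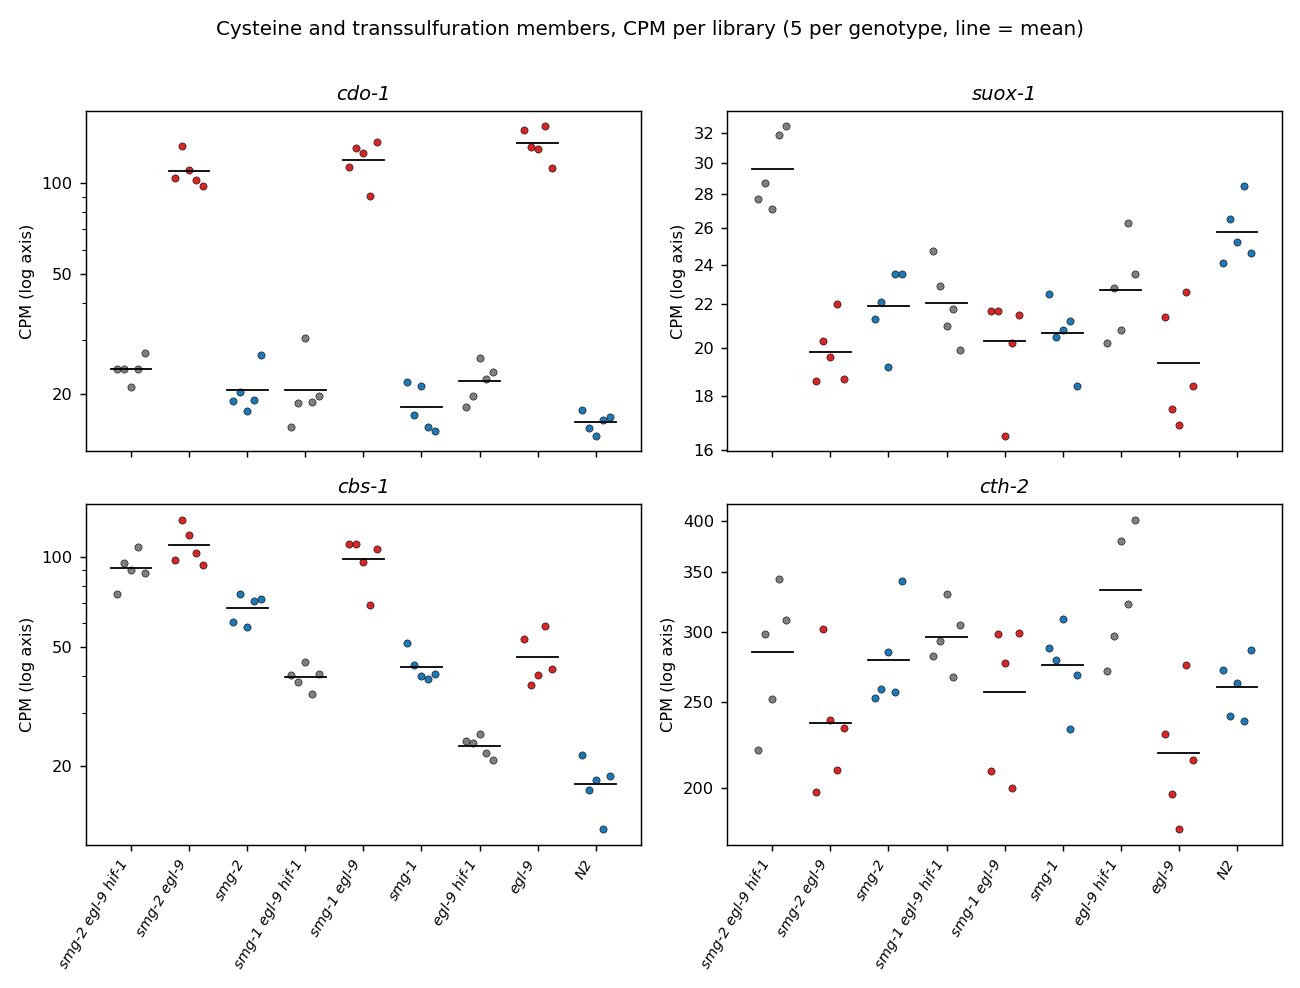
The same plot for cdo-1, suox-1, cbs-1 and cth-2. The cdo-1 levels follow the HIF-1 state, cbs-1 is higher in each NMD mutant than in its NMD-intact counterpart, and over all libraries suox-1 spans 16.5 to 32.5 CPM and cth-2 179.9 to 401 CPM.

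Removing hif-1 from egl-9 animals called all 8 genes, 6 as lower and 2 as higher, where 46.8% of all genes were called, 20.0% as lower and 26.7% as higher. The median log2 fold change of the 8 was -2.92, against 0.05 for all genes tested. With DESeq2 size factors 27.9% of all genes were called as lower and 22.4% as higher. The 6 that were lower are the 6 that egl-9 loss raised; both comparisons use the egl-9 libraries, so their values are given side by side and the mirrored direction is no separate evidence. In egl-9 hif-1, sqrd-1 had 0.550, 0.399, 0.314, 0.387 and 0.850 CPM, the lowest mean of the 9 genotypes for this gene, against 518 to 661 CPM in egl-9. The log2 fold change was -10.10 (SE 0.71, adjusted p 2.55e-15 in edgeR). For cysl-2 the levels were 13.7, 15.3, 14.7, 18.2 and 19.9 CPM in egl-9 hif-1, with a log2 fold change of -6.54 (SE 0.44). The other falls were -4.44 for mpst-3 (SE 0.12), -3.22 for ethe-1 (SE 0.14), -2.62 for cdo-1 (SE 0.15) and -0.99 for cbs-1 (SE 0.13). The rise of cth-2 was 0.61 (SE 0.13, adjusted p 1.77e-04), with 271 to 401 CPM in egl-9 hif-1 and 179.9 to 275 CPM in egl-9, so the groups overlapped. The rise of suox-1 was 0.23 (SE 0.09, adjusted p 0.0354), and it was no longer called when any of 16 libraries was left out in turn (adjusted p 0.0508 to 0.23 in those fits). It was also lost under 5 of 7 other settings.

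Against N2, 3 of the 8 were called in egl-9 hif-1, where 14.5% of all genes were called. The sqrd-1 level was lower, 0.500 ± 0.213 CPM in egl-9 hif-1 and 2.79 ± 0.248 CPM in N2 (SD, n = 5), and the groups did not overlap. The log2 fold change was -2.38 (SE 0.74, adjusted p 0.0255 in edgeR), which missed the threshold without egl-9 hif-1 replicate B or C (adjusted p 0.0527 to 0.0733). For cysl-2, 13.7 to 19.9 CPM in egl-9 hif-1 lay below 22.9 to 37.0 CPM in N2 without overlap, with a log2 fold change of -0.86 and an adjusted p of 0.0925. Without the deviating smg-1 egl-9 hif-1 library cysl-2 was called as lower (-0.90, SE 0.19, adjusted p 0.0014), sqrd-1 remained called (-2.41, adjusted p 4.00e-06), and ethe-1 was called as lower (-0.37, adjusted p 0.0376, against -0.33 and 0.0941 with it). The cth-2 level was 334 ± 54.8 CPM in egl-9 hif-1 and 260 ± 20.3 CPM in N2 (SD, n = 5), a log2 fold change of 0.36 that was not called in edgeR (adjusted p 0.0527). It was called as higher at a mean of at least 5 CPM (0.39, adjusted p 0.0415), under 1 other of the 7 settings, and when any of 7 libraries was left out (adjusted p 0.0224 to 0.0498). The higher calls were small. They were 0.45 for cdo-1 (adjusted p 0.0302) and 0.42 for cbs-1 (adjusted p 0.032), and these were lost when any of 12 and any of 15 libraries were left out in turn (adjusted p 0.0515 to 0.21 for cdo-1 and 0.0503 to 0.166 for cbs-1).

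The same 6 genes were higher on loss of egl-9 in both NMD-deficient backgrounds, where HIF-1 activity was compared within animals of the same smg genotype. In the smg-2 background 41.0% of all genes were called, and in the smg-1 background 50.3%. In smg-2 egl-9 relative to smg-2 the log2 fold changes were 7.13 for sqrd-1, 5.81 for cysl-2, 3.29 for mpst-3, 2.44 for ethe-1, 2.42 for cdo-1 and 0.70 for cbs-1, with adjusted p of at most 3.76e-05 in edgeR. In smg-1 egl-9 relative to smg-1 they were 6.67 for sqrd-1, 6.01 for cysl-2, 3.41 for mpst-3, 2.72 for cdo-1, 2.67 for ethe-1 and 1.19 for cbs-1, with adjusted p of at most 1.27e-09. None of the groups compared overlapped for these 6 genes, and the share of all genes without overlap was not counted. Neither suox-1 nor cth-2 was called in either background.

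The effect of egl-9 on mpst-3 was smaller without NMD. The interaction, which is the egl-9 effect in the smg background minus that with NMD intact, called 2 members for smg-2 (3.64% of all genes were called) and 2 for smg-1 (8.93%). In both it included mpst-3, at -1.11 for smg-2 (SE 0.15, adjusted p 3.84e-06 in edgeR) and -0.99 for smg-1 (SE 0.15, adjusted p 3.40e-05). For cbs-1 the smg-2 interaction was -0.71 (SE 0.19, adjusted p 0.0216), lost without smg-2 egl-9 replicate E (-0.66, adjusted p 0.0512). The suox-1 interaction with smg-1 was 0.39 (adjusted p 0.0486), and its call was lost when any of 34 libraries was left out in turn (adjusted p 0.0502 to 0.106) and under 6 of 7 other settings. Without the deviating smg-1 egl-9 hif-1 library the sqrd-1 interaction with smg-1 was called (-1.05, adjusted p 0.0402), where all libraries gave the same value with an adjusted p of 0.37. For cdo-1 the smg-2 interaction was -0.65 (SE 0.20, adjusted p 0.0536) and was not called, but it was called under 6 of 7 other settings and when any of 6 libraries was left out in turn (adjusted p 0.0263 to 0.0499). Without the deviating library it was -0.68 (adjusted p 0.0263). For cysl-2 no difference in the egl-9 effect was called, and the intervals ran from -0.85 to 1.13 for smg-2 and from -0.65 to 1.32 for smg-1.

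**Figure D3:**
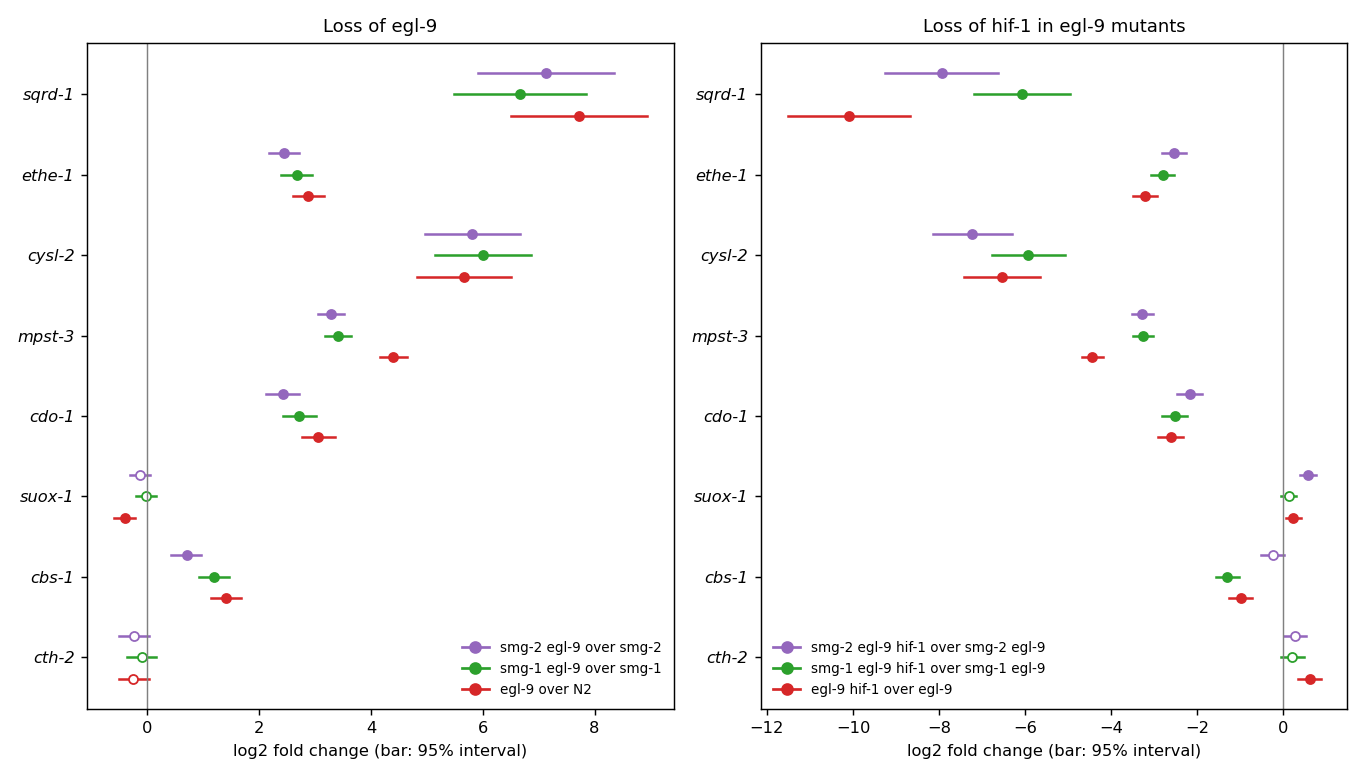
Log2 fold change of each member on loss of egl-9 (left) and on loss of hif-1 in egl-9 animals (right), in the smg-2, smg-1 and NMD-intact backgrounds; bars are 95% intervals and filled points passed the threshold. The 6 genes other than suox-1 and cth-2 lie right of 0 in every background on the left, and mpst-3 has a smaller effect in both smg backgrounds (3.29 and 3.41, against 4.40 with NMD intact).

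Removing hif-1 from the NMD-deficient egl-9 strains lowered the same genes, with cbs-1 as the exception in the smg-2 background. In smg-2 egl-9 hif-1 relative to smg-2 egl-9, 5 members were lower and 1 was higher, and 57.6% of all genes were called. The log2 fold changes were -7.93 for sqrd-1, -7.23 for cysl-2, -3.28 for mpst-3, -2.53 for ethe-1 and -2.18 for cdo-1, with adjusted p of at most 3.28e-16 for the last 4 and 2.05e-13 for sqrd-1 in edgeR. The suox-1 level was 29.6 ± 2.48 CPM in smg-2 egl-9 hif-1 and 19.8 ± 1.38 CPM in smg-2 egl-9 (SD, n = 5), a log2 change of 0.58 (SE 0.09, with adjusted p 9.99e-07). For cbs-1 the levels were 75.0 to 108 CPM in smg-2 egl-9 hif-1 and 93.9 to 133 CPM in smg-2 egl-9, with a log2 fold change of -0.25 (95% interval -0.51 to 0.01, adjusted p 0.0926). The cth-2 change was 0.27 (adjusted p 0.0723) and was called as higher when any of 13 libraries was left out in turn (0.35 to 0.40, adjusted p 0.0127 to 0.0437).

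In smg-1 egl-9 hif-1 relative to smg-1 egl-9, 6 members were lower and 49.7% of all genes were called. The changes on the log2 scale were -6.07 for sqrd-1, -5.93 for cysl-2, -3.26 for mpst-3, -2.80 for ethe-1, -2.52 for cdo-1 and -1.31 for cbs-1. Without the deviating library the first 2 became -8.70 (SE 0.34) and -7.13 (SE 0.26). In the other 4 libraries of smg-1 egl-9 hif-1, sqrd-1 had 0.493 to 0.996 CPM, against 210.0 to 307 CPM in smg-1 egl-9.

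The interactions with hif-1, which are the effect of hif-1 loss in smg egl-9 animals minus that in egl-9 animals, called 4 members for smg-2 (20.1% of all genes were called) and 2 for smg-1 (3.58%). A positive value means that hif-1 loss lowered the gene less, or raised it more, where NMD was lost. These interactions use the same egl-9 and smg egl-9 libraries as those with egl-9, so mirrored values are no separate evidence. For mpst-3 the interaction was 1.16 with smg-2 (adjusted p 2.13e-07 in edgeR) and 1.18 with smg-1 (adjusted p 6.27e-07). With smg-2 it was 0.74 for cbs-1 (adjusted p 0.00347), 0.69 for ethe-1 (adjusted p 0.00746) and 0.35 for suox-1 (adjusted p 0.0488, lost when any of 26 libraries was left out in turn, with adjusted p up to 0.123). For sqrd-1 it was 4.03 with smg-1 (adjusted p 0.00187), and without the deviating library it was 1.41 and was not called (adjusted p 0.0799). Without that library the sqrd-1 interaction with smg-2 was called (2.30, adjusted p 3.20e-04), where it was 2.16 with an adjusted p of 0.114 in all libraries. The cdo-1 interaction with smg-2 was 0.44 (adjusted p 0.108), and without that library it was called at 0.58 (adjusted p 0.0244). Leaving out any of 6 libraries, that one included, gave the call (adjusted p up to 0.0485), as did 2 of 7 other settings.

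With egl-9 and hif-1 both lost, 5 of the 8 genes were not called against the smg-2 parent, and none of the 8 against the smg-1 parent with all libraries included. In smg-2 egl-9 hif-1 relative to smg-2, 3 members were called where 29.6% of all genes were. The cysl-2 levels were 8.32, 9.72, 5.48, 8.81 and 7.62 CPM for smg-2 egl-9 hif-1, against 20.3, 21.7, 15.3, 23.04 and 27.4 CPM in smg-2, so the groups did not overlap. The log2 fold change of cysl-2 was -1.42 (SE 0.38, adjusted p 0.0033 in edgeR). The suox-1 level was higher (0.43, adjusted p 2.31e-04), as was that of cbs-1 (0.45, adjusted p 0.00744). In smg-1 egl-9 hif-1 relative to smg-1 the edgeR test called 0 of the 8, and 0.891% of all genes. The count was also 0 at an unadjusted p under 0.05, with DESeq2 and with limma. Without the deviating library 2 members were called as lower, sqrd-1 (-2.06, SE 0.35, adjusted p 2.19e-04) and cysl-2 (-1.16, SE 0.21, adjusted p 7.12e-04), where all 5 libraries had given 0.60 and 0.08. In those 4 libraries sqrd-1 had 0.493 to 0.996 CPM, against 1.21 to 5.16 CPM in smg-1.

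The cbs-1 gene was higher in the smg mutant in all 6 comparisons with NMD-intact animals of the same HIF-1 state. The levels were 60.3, 74.9, 58.2, 71.3 and 72.0 CPM in smg-2 and 51.6, 43.4, 39.8, 39.0 and 40.6 CPM in smg-1, against 12.3 to 21.7 CPM in N2. The log2 fold changes were 1.95 (SE 0.14, adjusted p 8.22e-16 in edgeR) for smg-2 and 1.3 (SE 0.13, adjusted p 1.09e-10) for smg-1. With HIF-1 active, cbs-1 had 109 ± 16.3 CPM in smg-2 egl-9 and 98.2 ± 17.2 CPM in smg-1 egl-9, against 46.4 ± 9.12 CPM in egl-9 (SD, n = 5). The log2 fold changes there were 1.24 (adjusted p 1.91e-10) and 1.08 (adjusted p 5.92e-09). Without egl-9 and hif-1 it had 91.6 ± 12.1 CPM in smg-2 egl-9 hif-1, with 39.6 ± 3.52 CPM for smg-1 egl-9 hif-1, against 23.4 ± 1.83 CPM in egl-9 hif-1. This gave log2 fold changes of 1.97 (adjusted p 3.99e-16) and 0.77 (adjusted p 9.49e-06). None of the 6 pairs of groups overlapped. Of all genes, 33.3% (smg-2 egl-9 against egl-9) to 53.1% (smg-1 against N2) were called in these 6 comparisons. Each genotype was a single strain, so NMD loss and other variation carried by the strain cannot be told apart. Oocyte markers had a negative median change in each of the same 6 comparisons. All 10 genes were called as lower with wild-type egl-9 and with egl-9 and hif-1 both lost. In smg-1 egl-9 relative to egl-9, 6 of 10 were called, and in smg-2 egl-9 relative to egl-9, 0 of 10 were. In that last pair the median was -0.33, and summed levels were 5695 to 6770 CPM in smg-2 egl-9 and 7190 to 8131 CPM in egl-9. The part of these markers in the cbs-1 values was not tested. The highest mean cbs-1 level, in smg-2 egl-9, and the next, in smg-1 egl-9, had overlapping libraries (93.9 to 133 and 69.2 to 109.8 CPM).

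With wild-type egl-9, loss of either smg gene called suox-1 besides cbs-1, and loss of smg-2 also called cdo-1. In smg-2 against N2, 3 members were called (43.9% of all genes), and in smg-1 against N2, 2 were (53.1%), so no larger a share of the 8 was called than of all genes. The suox-1 level was 21.9 ± 1.79 CPM in smg-2 and 20.7 ± 1.48 CPM in smg-1, against 25.8 ± 1.76 CPM in N2 (SD, n = 5). Its log2 fold changes were -0.24 (adjusted p 0.0301 in edgeR) for smg-2 and -0.32 (adjusted p 0.003) for smg-1. The smg-2 call was lost without smg-2 replicate A, N2 replicate B or N2 replicate D (-0.23 to -0.20, adjusted p 0.0567 to 0.0903). The cdo-1 gene was called in smg-2 (0.34, adjusted p 0.0486), and that call was lost when any of 32 libraries was left out in turn (adjusted p 0.0509 to 0.434). Without the deviating smg-1 egl-9 hif-1 library cysl-2 (-0.51, adjusted p 0.0238) and sqrd-1 (-0.69, adjusted p 0.041) were called as lower in smg-2. The mpst-3 level was 23.1 ± 1.63 CPM in smg-2, 22.9 ± 3.53 CPM in smg-1 and 23.1 ± 0.528 CPM in N2, and no difference was called.

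Where HIF-1 was active, mpst-3 and sqrd-1 were lower and cbs-1 higher on loss of either smg gene. The ethe-1 gene was called as lower on loss of smg-1 (-0.36), and its value for smg-2 (-0.31) missed the threshold. In smg-2 egl-9 relative to egl-9, 3 members were called (33.3% of all genes), and in smg-1 egl-9 relative to egl-9, 4 were (34.7%). The mpst-3 levels were 199, 234, 236, 232 and 231 CPM in smg-2 egl-9 and 209.9, 262, 233, 242 and 272 CPM in smg-1 egl-9, all below the 419 to 605 CPM of egl-9. The log2 fold changes were -1.11 (SE 0.11, adjusted p 7.14e-12 in edgeR) and -1.0 (SE 0.10, adjusted p 1.30e-10). For sqrd-1 the levels were 219.7, 291, 259.6, 238 and 238 CPM in smg-2 egl-9 and 210.0, 307, 264, 259 and 288 CPM in smg-1 egl-9, against 518 to 661 CPM in egl-9. Its log2 fold changes were -1.24 (SE 0.44, adjusted p 0.0263) and -1.15 (SE 0.44, adjusted p 0.0381).

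The sqrd-1 levels of these groups did not overlap. Without the deviating smg-1 egl-9 hif-1 library the log2 fold changes were -1.31 (SE 0.20, adjusted p 1.14e-06) and -1.16 (SE 0.20, adjusted p 1.05e-05). With it, the smg-2 call was lost without smg-2 egl-9 replicate A or E (adjusted p 0.0504 to 0.054), and the smg-1 call when any of 9 libraries was left out (adjusted p 0.0513 to 0.0724). The ethe-1 change was small. It was -0.36 in smg-1 egl-9 (adjusted p 0.0221 in edgeR), lost without smg-1 egl-9 replicate A or egl-9 replicate E and under 1 of 7 other settings. In smg-2 egl-9 it was -0.31 (adjusted p 0.0548), called under 5 of 7 other settings and when any of 16 libraries was left out (adjusted p 0.00757 to 0.0495). For cdo-1 the change was -0.31 in smg-2 egl-9 (adjusted p 0.0756), called under 5 of 7 other settings and when any of 14 libraries was left out (adjusted p 0.0166 to 0.044). For cysl-2 the levels overlapped, with 1027 to 1604 CPM in smg-2 egl-9 and 1007 to 1984 CPM in smg-1 egl-9, against 1130.4 to 2183 CPM in egl-9, and no difference was called.

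Without egl-9 and hif-1, 4 members were called in smg-2 egl-9 hif-1 relative to egl-9 hif-1 (51.8% of all genes). For smg-1 egl-9 hif-1 relative to egl-9 hif-1 it was 2 (36.7%). Besides cbs-1, suox-1 was higher in smg-2 egl-9 hif-1 (0.38, adjusted p 4.33e-04 in edgeR), the genotype with its highest levels, 27.1 to 32.5 CPM. The ethe-1 level was higher there (0.38, adjusted p 0.0215), which was lost without egl-9 hif-1 replicate A or B or smg-2 egl-9 hif-1 replicate E (0.31 to 0.35, adjusted p 0.0539 to 0.0758). The cysl-2 level was lower there, 7.99 ± 1.60 CPM in smg-2 egl-9 hif-1 and 16.4 ± 2.59 CPM in egl-9 hif-1 (SD, n = 5), a log2 fold change of -1.03 (adjusted p 0.0198). The cysl-2 call was lost without smg-2 egl-9 hif-1 replicate C or E or egl-9 hif-1 replicate D or E (-0.95 to -0.87, adjusted p 0.0549 to 0.0773). The sqrd-1 value there was 0.92 (adjusted p 0.396), and it was called as higher without the deviating smg-1 egl-9 hif-1 library (0.99, adjusted p 0.0416) and with only the compared genotypes in the fit (1.07, adjusted p 0.0285). Summed sperm markers had 571 to 789 CPM in smg-2 egl-9 hif-1 and 1019 to 1351 CPM in egl-9 hif-1, with 10 of 11 genes lower (median -0.74). Oocyte markers shifted more, with 10 of 10 genes lower (median -1.47). The part of either marker set in these values was not tested. For smg-1 the call besides cbs-1 was sqrd-1 (2.88, adjusted p 9.30e-04), which without the deviating library was 0.24 (adjusted p 0.706). Without that library cysl-2 was called as lower in smg-1 egl-9 hif-1 too (-0.65, adjusted p 0.0116), where all libraries had given 0.54 with an adjusted p of 0.241.

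**Figure D4:**
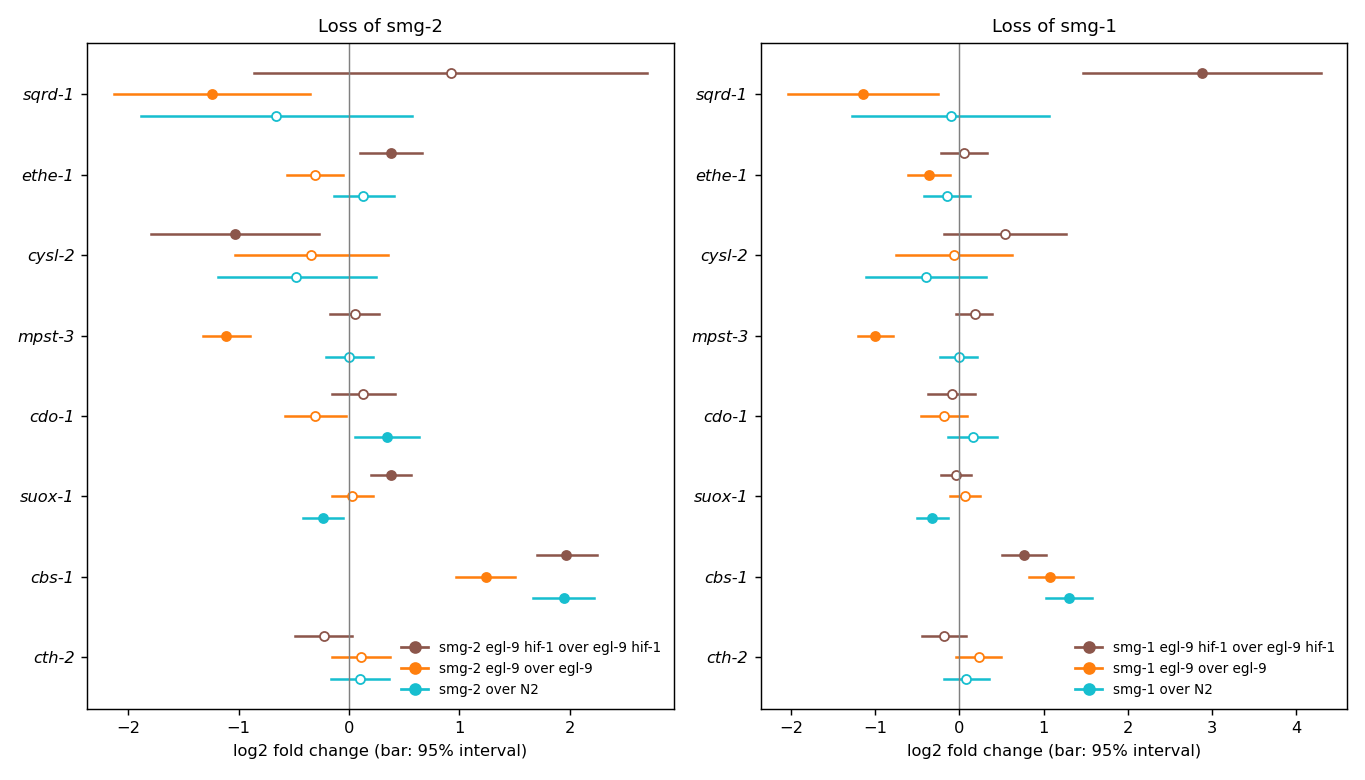
Log2 fold change of each member on loss of smg-2 (left) and smg-1 (right), without egl-9 and hif-1, with active HIF-1 and with wild-type egl-9; bars are 95% intervals and filled points passed the threshold. The cbs-1 points lie right of 0 in all 6 comparisons, mpst-3 and sqrd-1 are lower with active HIF-1, and the sqrd-1 point at 2.88 rests on the deviating library.

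The other genes of these pathways were called in both directions. Of 32 further genes in cysteine synthesis, sulfide oxidation, transsulfuration and the methionine cycle, molybdenum cofactor synthesis (the cofactor of sulfite oxidase), glutathione synthesis and H2S sensing, 30 rows were tested. No row was found under the symbols sqrd-2, mpst-5 and moc-4, and mpst-6 filled more than a single row. In egl-9 against N2, 6 were higher and 11 lower, with a median log2 fold change of -0.20. Of all genes tested, 11.9% were called as higher and 21.8% as lower there, with a median of -0.03. In egl-9 hif-1 over egl-9, 12 were higher and 9 lower, where 26.7% of all genes were called as higher and 20.0% as lower. The listed genes include egl-9, which is itself mutated in those strains. Several relatives of the members were lower. The cth-1 gene, a cystathionine gamma-lyase like cth-2, had 3.85 ± 1.27 CPM in egl-9, against 13.5 ± 2.54 CPM in N2 (-1.81, adjusted p 1.18e-07 in edgeR). The cbs-1 relative cbs-2 fell (-1.52, adjusted p 2.65e-06), as did the sulfurtransferase gene mpst-4 (-1.63, adjusted p 9.32e-06) and cysl-4 (-1.13, adjusted p 4.17e-05). The adenosylhomocysteinase gene ahcy-1, which supplies homocysteine, had 1335 ± 248 CPM in egl-9, against 2758 ± 137 CPM in N2 (-1.05, adjusted p 2.26e-09).

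All 5 of those lower genes were raised when hif-1 was also lost. They were picked as lower in egl-9, and both comparisons use the egl-9 libraries, so the mirrored direction is no separate evidence. The log2 fold changes were 2.75 for cth-1, 2.52 for mpst-4, 2.20 for cbs-2, 1.72 for cysl-4 and 1.02 for ahcy-1. Sperm markers moved in the same directions, with 9 of 11 called as lower in egl-9 than in N2 (median -1.08) and 10 of 11 higher on loss of hif-1 (median 1.48). The part of sperm in those 5 genes was not tested. No transsulfuration or methionine cycle gene of the list rose in egl-9 and 6 of 9 fell, where 21.8% of all genes were called as lower. None of the 2 glutathione genes was called. Of 5 molybdenum cofactor genes, 2 were lower, moc-2 (-0.67) and moc-5 (-0.25), which are named here after their values were seen. The mpst-6 gene is listed under 2 identifiers, of which a single one passed the threshold, so its change is uncertain.

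Of 5 genes of H2S sensing and HIF-1 feedback, loss of egl-9 raised 3 (rhy-1, rips-1 and egl-9 itself) over N2 and 0 were lower. Of 3 cysteine synthase-like genes 2 were higher and 1 was lower. Of all genes, 11.9% were called as higher and 21.8% as lower. The cysl-1 level was 163 ± 34.6 CPM in egl-9 and 36.4 ± 4.18 CPM in N2 (2.16, adjusted p 2.73e-16 in edgeR), and that of its relative cysl-3 was 126 ± 15.3 CPM in egl-9 and 43.6 ± 5.17 CPM in N2 (1.53, adjusted p 2.41e-14). The rhy-1 gene, which acts upstream of cysl-1 to keep HIF-1 low, had 623 ± 70.7 CPM in egl-9, against 23.7 ± 2.83 CPM in N2 (4.72, adjusted p 9.73e-20). The methyltransferase-like gene rips-1 had 1251 ± 217 CPM in egl-9, against 93.5 ± 7.33 CPM in N2 (3.74, adjusted p 1.51e-17). The 5 libraries of smg-1 egl-9 hif-1 held 13.9 to 38.2 CPM of rips-1, all above the 0.55 to 1.86 CPM found in egl-9 hif-1. The sulfurtransferase gene mpst-2 had 10 to 30 reads per library in egl-9, against 0 to 1 in N2 and 0 to 2 in egl-9 hif-1. It was called as higher in egl-9, but so few reads give no usable fold change.

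**Figure D5:**
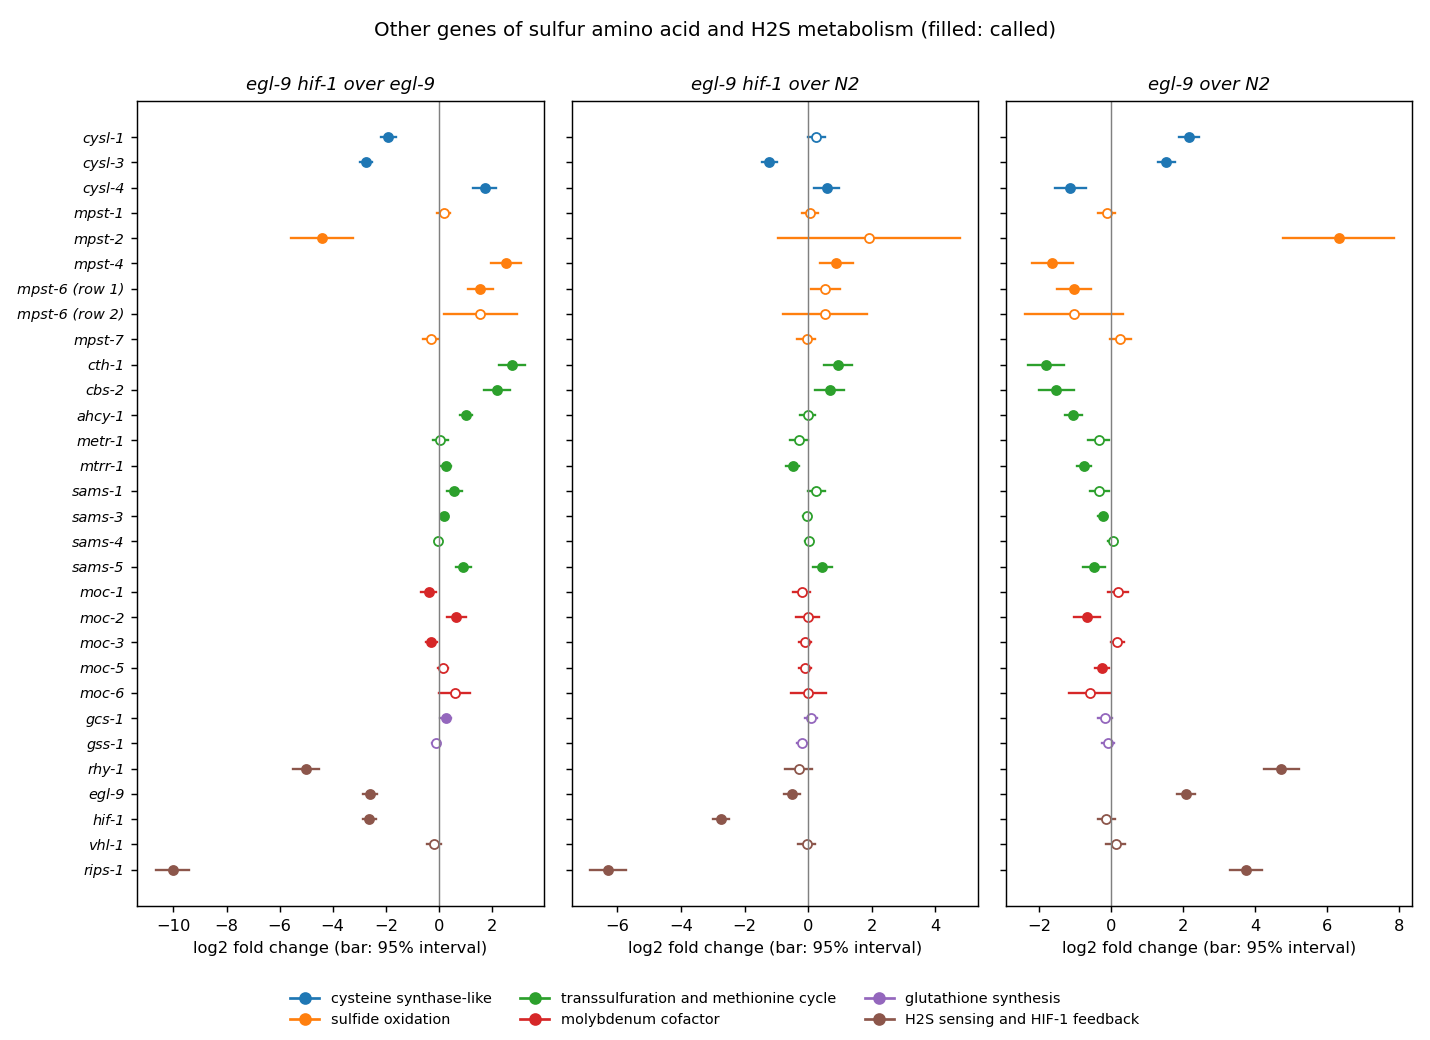
Log2 fold change of the 30 other tested rows of sulfur amino acid and H2S metabolism in egl-9 hif-1 over egl-9, egl-9 hif-1 over N2 and egl-9 over N2; bars are 95% intervals, filled points passed the threshold and colours mark the gene lists. In egl-9 over N2, cysl-1, cysl-3, mpst-2, rhy-1, egl-9 and rips-1 lie right of 0, and cth-1, cbs-2, mpst-4, cysl-4 and ahcy-1 lie left; the fitted value of mpst-2 rests on 0 to 1 reads per N2 library and is no bound.

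Across the 45 libraries the genes with the pattern most like that of a member were described by Pearson's r of log2 CPM. The libraries share 9 genotypes, so r mostly reflects the genotype means. For cysl-2 they were pck-1, glb-1 and rhy-1 (r of 0.99 each), and for sqrd-1 gst-19, pck-1 and cysl-2 itself (0.99, 0.99 and 0.98). The closest to ethe-1 was glb-1 (0.98), to mpst-3 M05D6.5 (0.99), and to cdo-1 T04A11.5 (0.98), a symbol listed under 2 identifiers. For cbs-1 the closest was K07H8.11 (0.94), for cth-2 argn-1 (0.88) and for suox-1 F11A5.15 (0.87). Among the members, the 5 genes cysl-2, sqrd-1, ethe-1, mpst-3 and cdo-1 had r between 0.95 and 0.98 with each other. After the genotype means were removed, cysl-2 and sqrd-1 deviated together over the libraries with an r of 0.83, which was 0.45 without the deviating library. For cysl-2 and cdo-1 r was 0.75, and 0.68 without it.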

How the data were processed

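The authors deposited 2 tables of 46926 genes by 45 libraries. The first holds estimated counts per gene, whole numbers as deposited (9822412 to 33169699 per library), with the unit read from the values and from RSEM being named in the submitters' processing notes. The other holds log2(TPM + 1) values deposited by the authors, from which TPM was computed here. Per the submitters' processing notes, FastQC, STAR 2.7.9a, RSEM 1.3.0 and DESeq2 were used with the WBcel235 genome; the role of each step and whether strand was used in counting are not given in the sources used here. RSEM shares reads between similar or overlapping genes, so such genes are uncertain.

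The main test was edgeR's quasi-likelihood F test (edgeR 4.0.16, R 4.3.3) with TMM scaling (factors 0.902 to 1.08), filterByExpr and 9 genotype means in a single model (36 residual degrees of freedom). It ran over 16053 genes with Benjamini-Hochberg adjustment and a threshold of 0.05. It gave 15 comparisons of genotypes and 4 interactions, and was tested on simulated data. Levels are CPM, or TPM where genes are compared. Correlations used log2 CPM with a prior count of 2, and leaving the deviating library out of them was chosen after seeing the data. Alternatives were DESeq2 size factors, DESeq2 1.42.0, limma 3.58.1 on the log2(TPM + 1) values deposited by the authors, other filters, a replicate block, fewer genotypes in the fit and leaving out each library. The 8 members are all named; other pathway genes were named where they were called in egl-9 against N2 or egl-9 hif-1 against egl-9 with at least a 2-fold change, and cysl-1 and rhy-1 always. The members, lists and tests were chosen with earlier results of these data known. Replicates are labelled as biological, and replicates of a genotype differed by more than counting noise (chi-square over degrees of freedom 4.89 to 88.5 in 90 pairs).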

Additional observations from a re-analysis of the deposited data

Results flagged for a closer look

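In 72 groups of 5 libraries (8 genes in 9 genotypes), the library farthest from the others was compared with the range of its group, and 5 stood out past Dixon's 95% critical value of 0.71. Chance flags about 1 in 20 groups. Of these 5, 4 were the same library, replicate C of smg-1 egl-9 hif-1, with 77.7 CPM of cysl-2, 16.3 CPM of sqrd-1, 33.6 CPM of mpst-3 and 30.5 CPM of cdo-1, each above the other 4 libraries. The last was mpst-3 in replicate A of smg-2 egl-9, which was low at 199 CPM, against 231 to 236 CPM in the others.

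In 10 cases the interaction test found that the effect of a mutation on a gene differed between NMD backgrounds. Of all genes, the interactions with egl-9 called 3.64% for smg-2 and 8.93% for smg-1. Those with hif-1 called 20.1% for smg-2 and 3.58% for smg-1. Both kinds use the egl-9 and smg egl-9 libraries, so mirrored values of a gene are no separate evidence. For mpst-3 the effect of egl-9 loss was smaller in smg-2 (-1.11) and in smg-1 (-0.99) than with NMD intact, and the effect of hif-1 loss was less negative without SMG-2 (1.16) and without SMG-1 (1.18) than with NMD intact. For cbs-1 the effect of egl-9 loss was smaller in smg-2 (-0.71), and hif-1 loss lowered it less in smg-2 egl-9 (0.74). For ethe-1 hif-1 loss lowered it less in smg-2 egl-9 (0.69). For suox-1 the effect of egl-9 loss differed in smg-1 (0.39) and that of hif-1 loss in smg-2 egl-9 (0.35), and both values lie close to the threshold. For sqrd-1 hif-1 loss lowered it less in smg-1 egl-9 (4.03), a value that was 1.41 and not called without replicate C of smg-1 egl-9 hif-1.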

How the results depend on the processing

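The values of single members compared over the alternatives were those called under at least 1 setting and the uncalled values given in the text. Of these 101, 73 were called in the main test. None of the called values reversed under any alternative, 60 kept their call under the 7 other settings, and 57 under those and every left-out library. Among the 101, the values that turned sign were not called in the main test. In smg-1 egl-9 hif-1 relative to smg-1, cysl-2 (0.08) was -0.01 with the replicate block, -0.52 with limma and -1.16 without replicate C of the first genotype (-1.16 to 0.30 over all libraries left out), and sqrd-1 (0.60) was -0.26 with limma and -2.06 without that library (-2.06 to 1.09). In smg-1 egl-9 hif-1 relative to egl-9 hif-1, cysl-2 (0.54) was -0.65 without it (-0.65 to 0.76). Values outside the 101, called under no setting, could also turn. The cysl-2 interaction of smg-1 with hif-1 was 0.61, and -0.58 without that library. The shift with limma was not tested for a cause.

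The number of the 8 members called moved by over 1.5 times in these cases. In egl-9 hif-1 against N2 it was 3, and 1 with no filter on low counts. In smg-2 egl-9 over egl-9 it was 3, and 5 with DESeq2 size factors, no filter, only the genotypes compared, and DESeq2's Wald test. In smg-1 egl-9 hif-1 relative to egl-9 hif-1 it was 2, and 1 with only the genotypes compared. For the smg-1 by egl-9 interaction it was 2, and 1 with DESeq2 size factors, no filter, a mean of at least 5 CPM, only the genotypes compared, and DESeq2's Wald test. For the smg-1 by hif-1 interaction it was 2, and 1 with only the genotypes compared. The cause of these shifts was not tested. DESeq2 size factors moved the median of all genes by -0.11 in smg-2 egl-9 over egl-9 and by 0.12 in both interactions with hif-1, and by at most 0.10 elsewhere.

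Leaving out each library in turn gave 0 to 4 called in egl-9 hif-1 against N2, 0 to 2 in smg-1 egl-9 hif-1 relative to smg-1, 1 to 4 in smg-2 against N2, 2 to 4 in smg-1 egl-9 over egl-9, 2 to 5 in smg-2 egl-9 over egl-9, and 2 to 5 in smg-2 egl-9 hif-1 relative to egl-9 hif-1. For the interactions it gave 1 to 2 (smg-1 with egl-9), 1 to 3 (smg-2 with egl-9), 1 to 2 (smg-1 with hif-1) and 3 to 6 (smg-2 with hif-1).

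Over all genes, egl-9 hif-1 against N2 called 2327, 895 with only its genotypes in the fit, 3651 with the replicate block, and 969 to 3344 with a library left out. In smg-1 egl-9 hif-1 relative to smg-1 the count was 143, and 249 with the block. For the smg-1 by egl-9 interaction it was 1434, against 934 with DESeq2 size factors, 906 with no filter, 2494 with the block and 651 to 1924 with a library left out. For the smg-2 by egl-9 interaction it was 585, against 889 with the block and 321 to 675 with a library left out. For the smg-1 by hif-1 interaction it was 575, against 299 with no filter, 358 at 5 CPM, 208 with only its genotypes, 1006 with the block and 275 to 881 with a library left out.

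The labels do not say what libraries of the same replicate letter share, and their values were weakly related. Deviations of same-letter libraries from their genotype means correlated with a median of 0.15 (-0.47 to 0.64), with 103 of 180 pairs over 0.1, and other letters gave -0.02. With the letter as a replicate block the member count was 4 in egl-9 hif-1 against N2 (cth-2 gained, 0.35, adjusted p 0.0335), 2 in smg-2 against N2 (cdo-1 lost, 0.33, adjusted p 0.0533), 4 in smg-2 egl-9 over egl-9 (ethe-1 gained, -0.31, adjusted p 0.0327) and 3 for the smg-2 by egl-9 interaction (cdo-1 gained, -0.65, adjusted p 0.0445), and it was unmoved in the other comparisons. Counts of sqrd-1 were as low as 4 reads per library without active HIF-1, which limits the precision of its folds there.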
